A study of Mus musculus with 12 samples.

Results

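Cytosolic ribosomal protein genes encode the protein parts of the small (Rps) and large (Rpl) subunit of the ribosome that works in the cytoplasm. They were taken here by gene name, as the protein-coding genes whose symbols start with Rps or Rpl and a digit, together with Rplp0, Rplp1, Rplp2 and Rpsa. The S6 kinases were left out, as were a few other matching names that are not analysed here. Of 21951 protein-coding genes in the feature table, 90 met that rule, and no measured value was used to pick them. The names also brought in close copies (Rpl39l, Rpl22l1, Rpl36al, Rps27l, Rps27rt, Rpl3l, Rpl7l1), 6 genes named as pseudogenes but annotated as protein-coding, and Rps19bp1, whose protein binds RPS19 and is no part of the ribosome.

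A ribosome holds 1 copy of most of its proteins, so most cells make their mRNAs in near-equal proportion and at high levels. Many of these mRNAs begin with a C and a run of pyrimidines, the terminal oligopyrimidine or TOP motif, through which the mTOR pathway and LARP1 control their translation. Male germ cells add a further feature: in pachytene spermatocytes the X and Y chromosomes are packed into the sex body and transcriptionally silenced, and ribosomal protein genes on the X have autosomal copies, often expressed in testis. Rpl39l, the autosomal copy of Rpl39, is known as a part of germ-cell ribosomes in mice.

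The libraries came from testes of C57BL/6 mice in 4 groups of 3 libraries. These were Zfp541-KO (Zfp541-/-) mice at 360 h, wild-type (WT) mice at 360 h, Zfp541-KO mice at 260 h and WT mice at 260 h, where the hours run from an injection of retinoic acid. All 4 groups, the WT mice included, had first been fed WIN 18,446, which blocks retinoic acid synthesis, from 2 days after birth and for 7 days, so that germ cells entered meiosis together once retinoic acid was given. The labels call the 360 h cells late pachytene and the 260 h cells early pachytene. Single cells were picked by mouth pipette, and the 3′ ends of their polyadenylated RNA were counted as unique molecular identifiers (UMIs), each marking 1 cDNA molecule.

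Of 1152 barcodes, 929 were kept cells in the authors' cell table, and 3601518 to 27202665 gene UMIs were summed per library. Zfp541 had 134 to 155 unscaled CPM (UMIs relative to the total gene UMIs of a library) in KO libraries against 127 to 167 in WT libraries at 360 h, and 98.3 to 133 against 42.3 to 135 at 260 h. Where the knockout changes the gene relative to the counted 3′ ends was not checked, so these counts do not check the genotype. Cells that the authors classed as pre-meiotic made up 0%, 11.2% and 11.2% of the KO libraries and 2.35%, 2.15% and 1.06% of the WT libraries at 360 h, against 28.0%, 28.6% and 36.0% in KO and 46.2%, 16.2% and 19.1% in WT at 260 h. WT library 1 at 260 h stood apart with the largest such share, and its summed level of 15 peritubular, endothelial, blood and immune markers was 658 unscaled CPM, against 21.6 to 284 in the other 11 libraries, with 1 of the 15 at 0. Whether each library of a group stems from its own animal is not stated, so p-values here measure the spread between libraries, which may be partly technical.

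The start regions of 64 of the 90 genes were found in RefSeq (GRCm38.p6), in 76 windows that ran from 250 bases before to 50 bases after the transcript start. A pyrimidine run of at least 7 bases that begins with C within 10 bases of the start was present in 39.5% of them, against 12.2% of all 32851 windows. The ETS-type core CCGGAAG, searched on both strands, was in 35.5% against 8.86%, the YY1-type core AAGATGGC in 10.5% against 2.75%, and the box TATAAA in 9.21% against 13.6%. These matches describe letters in the windows and were not tied to any factor. Shown here are 6 starts on which the results below turn, each with 50 bases before and 25 bases from the RefSeq start on, with a run of at least 5 pyrimidines that begins with C near the start in capitals. Rps4x and Rpl36a are X-linked, Rpl39l and Rps27l were higher in the cell class where the X-linked genes were lower, Rps27rt is a retrogene copy, and Rpl22 differed between genotypes.
Rps4x, chrX:102189367-102189441, minus strand: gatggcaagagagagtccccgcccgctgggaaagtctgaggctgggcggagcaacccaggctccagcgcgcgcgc
Rpl36a, chrX:134585604-134585678, plus strand: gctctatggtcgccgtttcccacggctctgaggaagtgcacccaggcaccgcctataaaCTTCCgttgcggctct
Rpl39l, chr16:10170178-10170252, plus strand: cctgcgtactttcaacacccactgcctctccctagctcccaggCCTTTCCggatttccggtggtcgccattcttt
Rps27l, chr9:66946036-66946110, plus strand: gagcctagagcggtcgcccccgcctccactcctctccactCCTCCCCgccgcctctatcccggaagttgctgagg
Rps27rt, chr9:114982715-114982789, minus strand: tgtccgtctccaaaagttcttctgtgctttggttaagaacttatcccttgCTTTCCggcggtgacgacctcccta
Rpl22, chr4:152325676-152325750, plus strand: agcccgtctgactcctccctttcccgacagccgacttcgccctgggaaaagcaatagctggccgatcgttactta

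Ribosomal protein mRNAs took a larger share of the transcriptome in KO than in WT cells at 360 h. They made up 6.37%, 6.18% and 6.23% of gene UMIs in the KO libraries, against 4.51%, 4.59% and 3.71% in the WT libraries, with means of 6.26% ± 0.0982 and 4.27% ± 0.487 (SD, n = 3 each). The 2 groups did not overlap. At 260 h the shares were 7.39%, 7.73% and 6.61% in KO libraries and 9.15%, 5.56% and 4.51% in WT libraries, and here the WT libraries reached both above and below the KO ones, the highest being library 1 with its 46.2% of pre-meiotic cells. No p is given for these sums over chosen genes. The share per cell listed in the authors' deposited table, for which no gene list was found, averaged 7.65%, 7.56% and 7.68% in the KO libraries at 360 h and 5.57%, 5.64% and 5.16% in the WT libraries.

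Gene UMIs per spike-in UMI ran the other way. At 360 h the KO libraries had 12.3, 13.1 and 12.4 gene UMIs for each UMI of the ERCC spike-ins, synthetic RNAs added as a standard, and the WT libraries had 19.5, 16.6 and 31.2. Ribosomal protein UMIs per 100 spike-in UMIs were 78.5, 81.1 and 77.4 in KO and 88.1, 76.4 and 116 in WT, so these groups overlapped. All KO libraries lay below all WT libraries in gene UMIs per spike-in UMI, while the ribosomal protein UMIs per spike-in UMI did not separate the genotypes. The median gene UMIs per kept cell at 360 h were 100448, 108376 and 105706 in KO libraries and 151800, 150711 and 286855 in WT libraries. The parts of cell types, RNA per cell and sequencing depth in these differences were not tested.

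**Figure D1:**
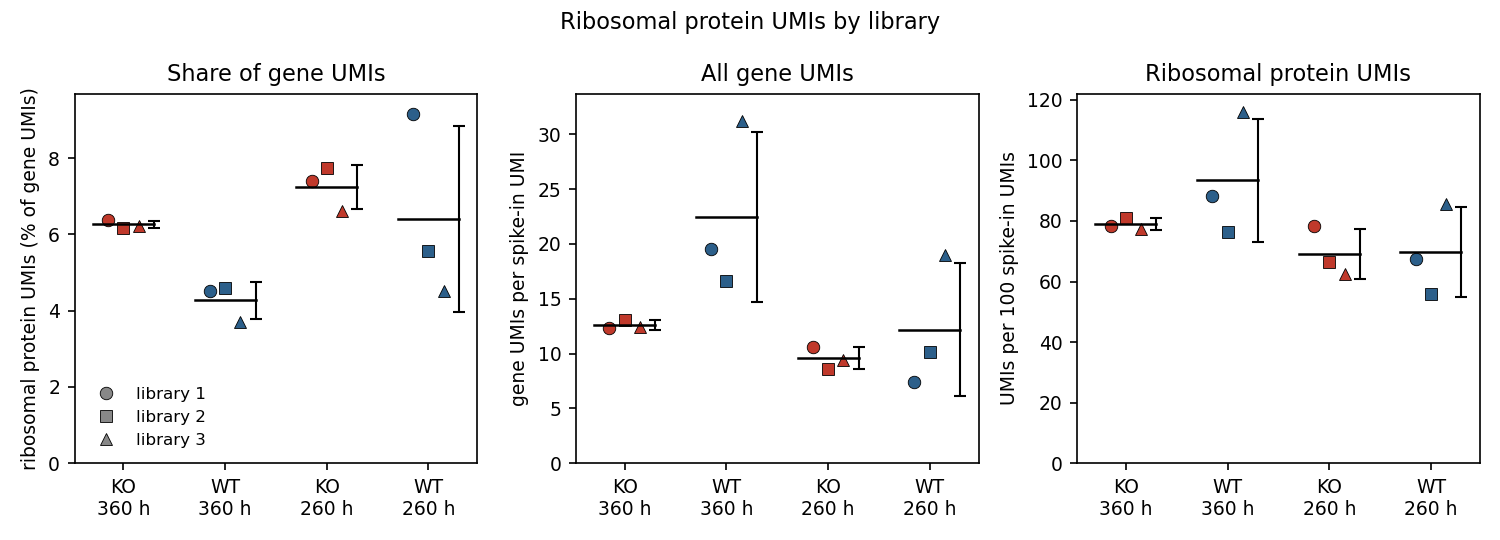
Ribosomal protein UMIs as a percent of gene UMIs (left), gene UMIs per ERCC spike-in UMI (middle) and ribosomal protein UMIs per 100 spike-in UMIs (right), for 3 libraries per group; symbols are libraries, bars the mean and SD. At 360 h the KO libraries lie at 6.18% to 6.37% and the WT libraries at 3.71% to 4.59%, but per spike-in UMI the ribosomal protein counts of the genotypes overlap.

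Within the family, proportions were steady for most genes. Across the 12 libraries, the level of a gene relative to the rest of the family varied with a median SD of 0.252 on the log2 scale, and 50 of 88 genes had an SD under 0.3. Only 15 had an SD over 0.6, led by Rpl36a (1.67), Rps19bp1 (1.42), Rpl39 (1.35), Rps4x (1.23), Rpl10-ps3 (1.22), Rps2 (1.22), Rpl22l1 (1.16) and Rpl13 (1.05). These are the X-linked genes, a pseudogene-named row, a copy and a few autosomal genes. The ratio of small-subunit to large-subunit UMIs was 0.813 ± 0.0288 in KO and 0.763 ± 0.00532 in WT libraries at 360 h, and 0.834 ± 0.0236 in KO and 0.789 ± 0.0169 in WT libraries at 260 h (SD, n = 3 each).

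Counting limits bear on some of these genes. The 290 pseudogene rows whose names match the family held 6.19% of the UMIs of family and pseudogenes together, and in 6 genes over 20% of the summed UMIs lay in named pseudogene rows, at 74.4% for Rpl13a, 57.4% for Rps10 and 45.7% for Rps6. The levels of these genes are therefore uncertain. Exons of 23 genes overlap those of another gene, over more than 50% of their length in Rpl35 and Rpl23a and over 24.3% in Rpl5 and 24.5% in Rpl36al, and no source states whether reads were counted by strand. Rpl9-ps1 and Rpl36-ps4 had too few UMIs to be tested, which left 88 genes, and a gene below is called at an adjusted p under 0.05 (edgeR quasi-likelihood test, Benjamini-Hochberg over 20279 genes).

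In the knockout at 360 h, 5 of 88 genes rose against WT and none fell (5.68%), while 22.5% of all genes tested were called. Per direction, 8.93% of all genes were called higher and 13.5% lower. Among the 2580 genes with a mean of at least 100 CPM, nearer to the family in level, 24.6% were called, 5.97% higher and 18.6% lower, so the 5.68% called higher in the family lay near that background. The 5 genes were Rpl22, Rpl13a, Rpl5, Rpsa and Rps15. With spike-in scaling none of the 5 was called (adjusted p 0.369 to 0.685, edgeR), and the 1 call was Rps2, lower in KO. At an unadjusted p under 0.05 there were 16 genes, or 18.2% against 35.0% of all genes. Against medians of 0.03 over all genes and -0.26 over those of at least 100 CPM, the family as a whole leaned up. Of its 88 log2 fold changes, 75 were above 0, and the family median was 0.23. Scaled to the spike-ins that median turned to -0.24 against -0.48 for all genes, and scaled to gene UMI totals alone it was 0.56 against 0.35. Its sign thus depended on the scaling. It lay 0.20 to 0.25 above all genes under the 3 scalings. A change of scaling moves the fold changes of all genes by about the same amount, so this steady gap is no separate support.

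Rpl22, a large-subunit protein that also binds RNA outside the ribosome, gave the clearest difference. It stood at 429, 415 and 409 CPM (UMIs relative to the TMM-scaled library size) in KO libraries at 360 h, against 183, 176 and 222 CPM in WT libraries. The groups were well apart, with a log2 fold change of 1.11 ± 0.26 (SE) and an adjusted p of 0.00613 (edgeR). It was called in 17 of 18 alternative analyses, the exception being spike-in scaling, under which the change was 0.53 (adjusted p 0.369). Among late pachytene cells alone the level was 394, 400.5 and 408 unscaled CPM in KO libraries and 148, 122 and 182 in WT libraries.

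Rpl5, which carries 5S rRNA into the large subunit and can bind MDM2, had 323, 377 and 365 CPM in KO libraries and 197, 193 and 187 CPM in WT libraries at 360 h. Rpsa, a small-subunit protein also known as the laminin receptor, had 625, 596 and 635 CPM in KO and 353, 405 and 302 CPM in WT. Rps15, a small-subunit head protein, had 1181, 1049 and 1053 CPM in KO and 659, 707 and 623 CPM in WT. None of these genes overlapped between the genotypes. Their log2 fold changes were 0.89 ± 0.29 for Rpl5, 0.81 ± 0.27 for Rpsa and 0.72 ± 0.25 for Rps15 (SE), with adjusted p of 0.0359, 0.0437 and 0.0481 (edgeR). Rpl13a, a large-subunit protein with most of its UMIs in pseudogene rows, had 43.5, 37.1 and 33.4 CPM in KO against 22.7, 20.8 and 11.3 CPM in WT, a log2 change of 1.06 ± 0.33 (adjusted p 0.0309, edgeR).

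These calls were near the threshold. Leaving out WT library 3, KO library 2 or KO library 3 gave 1 call in each case, Rpl22. Without WT library 1 the calls were Rpl22, Rpl13a and Rps10, without WT library 2 they were Rpl22, Rps3a1 and Rps2, and without KO library 1 they were Rpl22, Rpl36a, Rpl39 and Rps10. Of the 5 genes, Rpl22 was thus called each time, Rpl13a once and the other 3 never. With only the 360 h libraries in the fit, 19 of 86 genes were called, all higher in KO, which is 22.1% against 32.5% of all genes. Without pre-meiotic cells 8 were, or 9.30% against 24.1% of all genes. In 27 of 88 genes all KO libraries lay above all WT libraries and in 1 gene below, where 19.6% and 24.6% of all genes did so. Summed cell-type markers separated the genotypes in some lists only. The summed level of 14 early meiotic prophase markers was 4202 to 5258 unscaled CPM in KO and 1848 to 2181 in WT libraries at 360 h. That of 9 Leydig cell markers was 109 to 127 in KO and 151 to 277 in WT. Much of this sum was Fdx1, at 91.4 CPM in KO and 227 CPM in WT, the only Leydig marker called. The median log2 fold change of the 7 tested Leydig markers went the other way, at 1.13. The genotypes overlapped for 10 Sertoli cell markers (59.8 to 228 in KO, 39.9 to 88.6 in WT) and 16 spermatogonia markers (571 to 1100 in KO, 737 to 786 in WT). They also overlapped for the mid and late pachytene list and the peritubular, endothelial, blood and immune list. Such sums can rest on 1 gene: Dmrtb1 of the spermatogonia list averaged 114 CPM in KO and 584 CPM in WT. Gene by gene, the median log2 fold change was 1.53 for spermatogonia markers, with 2 called higher and 1 lower. It was -1.94 for mid and late pachytene markers, with 8 of 14 called lower and none higher. For Sertoli markers it was 1.19, with none called. The part of these markers in the ribosomal protein values was not tested.

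**Figure D2:**
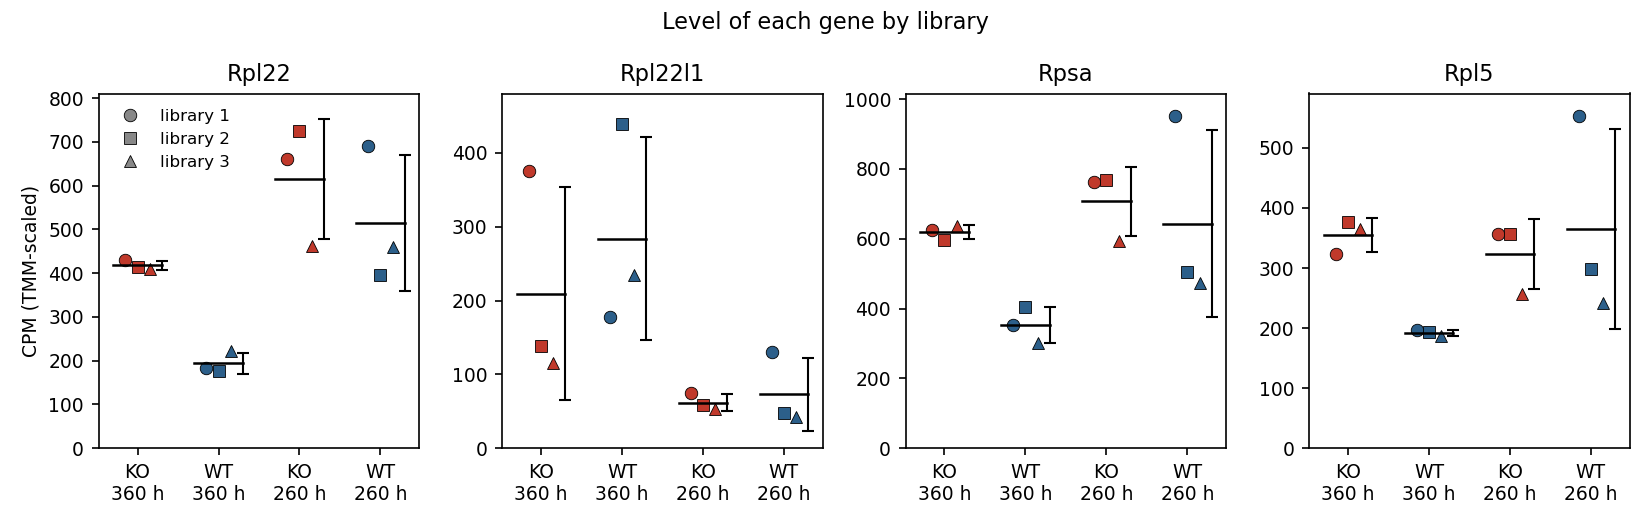
Levels of Rpl22, Rpl22l1, Rpsa and Rpl5 in CPM (UMIs relative to the TMM-scaled library size) in the 12 libraries; symbols are libraries, bars the mean and SD of 3. Rpl22 lies at 409 to 429 CPM in KO and 176 to 222 CPM in WT at 360 h, while Rpl22l1 overlaps between the genotypes at both times.

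At 260 h, none of 88 genes was called between KO and WT, where 1.89% of all genes were, 0.582% higher and 1.31% lower (edgeR). Among genes of at least 100 CPM it was 3.88%, with 0.310% higher and 3.57% lower. At an unadjusted p under 0.05 there were 2 genes, or 2.27% against 13.0% of all genes. The DESeq2 Wald test called 1 (Rps2), or 1.14% against 4.70% of all genes. With limma-voom 0 were called, against 0.868% of all genes. The family median was 0.12, against -0.01 for all genes and -0.18 for those of at least 100 CPM. Without WT library 1 the family median was 0.45. Rpl13 had the largest value at 1.30 ± 0.47, with 1431, 1715 and 1016 CPM in KO and 375, 479 and 837 CPM in WT (adjusted p 0.218, edgeR). Rps2, a small-subunit protein at the entry of the mRNA channel, had 748, 861 and 595 CPM in KO and 343, 301 and 405 CPM in WT (log2 1.07 ± 0.30, adjusted p 0.0918, edgeR). For both genes the KO libraries lay above all WT libraries, as in 7.25% of all genes, and no other gene of the 88 did so.

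**Figure D3:**
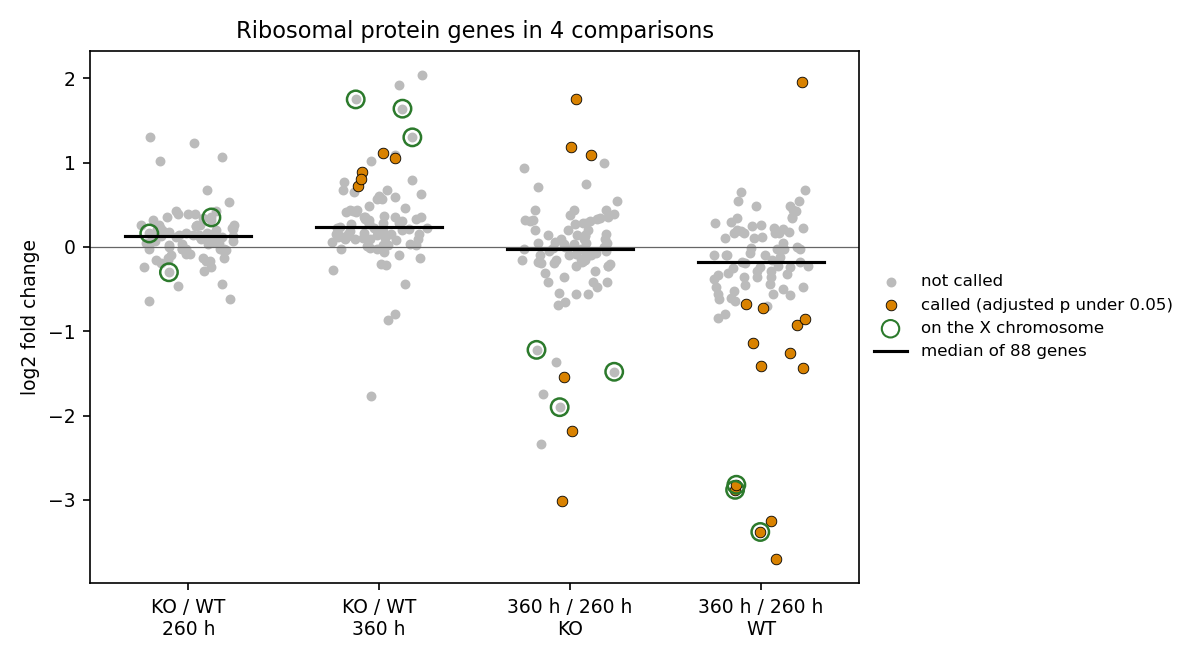
Log2 fold changes of 88 ribosomal protein genes in 4 comparisons; each point is a gene, the bars mark medians, filled orange points are called at an adjusted p under 0.05 (edgeR) and green rings mark the 3 X-linked genes. The X-linked genes lie at -0.30 to 0.35 between genotypes at 260 h and at -2.82 to -3.38 between 360 h and 260 h in WT.

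Between the times in WT cells, 1 gene rose and 13 fell of 88 (15.9%), where 39.9% of all genes were called, 20.9% higher and 18.9% lower at 360 h. Among genes of at least 100 CPM 50.2% were, 37.8% higher and 12.4% lower. The genes with the strongest falls were the X-linked Rpl36a, Rpl39 and Rps4x, together with the autosomal copies Rpl36a-ps1 and Rpl10-ps3. Autosomal genes with smaller falls included Rps10, Rpl22, Rpl14, Rps2, Rpl5, Rpsa and Rpl3, and the one that rose was Rpl22l1. The median of the 88 genes was -0.18, against -0.10 for all genes and 0.43 for those of at least 100 CPM. With spike-in scaling it was 0.37 against 0.33 for all genes, and with gene totals alone -0.66 against -0.57, so its sign depended on the scaling. The balance of calls did too: with spike-in scaling 11 genes rose and 5 fell, the 5 being the X-linked genes, Rpl36a-ps1 and Rpl10-ps3. Without WT library 1 at 260 h, the median was 0.17, and 5 genes rose and 7 fell. Those calls were 13.6% of the family against 32.6% of all genes, and those with spike-in scaling 18.2% against 30.2%.

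The 3 X-linked genes analysed, Rps4x of the small subunit and Rpl39 and Rpl36a of the large one, behaved alike. Rps4x had 8.62, 6.41 and 1.99 CPM in WT libraries at 360 h, against 71.9, 26.5 and 21.3 CPM at 260 h (log2 -2.82 ± 0.67, adjusted p 0.00432, edgeR). Rpl39 had 12.9, 8.21 and 4.25 CPM at 360 h, against 128, 26.1 and 32.2 CPM at 260 h (log2 -2.88 ± 0.71, adjusted p 0.00623, edgeR). Rpl36a had 26.7, 21.8 and 6.59 CPM at 360 h, against 379, 87.5 and 104 CPM at 260 h (log2 -3.38 ± 0.82, adjusted p 0.00678, edgeR). In every case the 360 h libraries lay below all 260 h libraries, as in 24.2% of all genes. The calls held in all 18 alternatives, spike-in scaling and the removal of pre-meiotic cells included. The size rested partly on WT library 1 at 260 h, without which the log2 changes were -2.10 for Rps4x, -1.81 for Rpl39 and -2.40 for Rpl36a.

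In KO cells the same 3 genes did not pass the test between the times. Here too all 360 h libraries lay below all 260 h libraries, as in 23.1% of all genes. Rpl36a was called with limma-voom and with DESeq2, and Rpl39 with limma-voom and without the filter on low counts. Rps4x had 3.66, 14.1 and 23.6 CPM at 360 h and 37.6, 33.1 and 25.9 CPM at 260 h (log2 -1.22 ± 0.63, adjusted p 0.181, edgeR). Rpl39 had 7.44, 30.1 and 47.0 CPM at 360 h and 85.0, 84.6 and 66.5 CPM at 260 h. Rpl36a had 9.71, 82.8 and 77.6 CPM at 360 h and 219, 269.7 and 147 CPM at 260 h. The KO libraries at 360 h were split: library 1, with 0% pre-meiotic cells, was lowest for all 3 genes, and libraries 2 and 3, with 11.2% each, were higher. Library 1 was also lowest among late pachytene cells alone, with Rps4x at 3.36, 8.77 and 18.1 unscaled CPM in the KO libraries. Rpl39 was there at 6.83, 22.1 and 38.5, and Rpl36a at 8.91, 29.0 and 39.3. The cause of the split was not tested. Without pre-meiotic cells the log2 changes in KO were 0.02 for Rps4x, -0.72 for Rpl39 and -0.30 for Rpl36a, and those in WT were -2.19, -2.33 and -2.52. The difference between the time courses was itself not called, at 1.40 ± 0.94 for Rpl39 and 1.48 ± 1.07 for Rpl36a, with adjusted p of 0.437 and 0.479, and 0.337 for Rps4x (edgeR).

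Rpl36a-ps1 and Rpl10-ps3 are autosomal rows that followed the X-linked genes. Rpl10-ps3 had 3.67, 3.02 and 0.265 CPM in WT libraries at 360 h and 45.2, 11.7 and 8.44 CPM at 260 h (log2 -3.25 ± 0.93, adjusted p 0.0131, edgeR). Rpl36a-ps1 had 0.550, 0.566 and 0.0885 CPM at 360 h and 12.8, 0.889 and 1.89 CPM at 260 h (log2 -3.70 ± 1.09, adjusted p 0.0135, edgeR). Such copies are close in sequence to their parent genes, so these levels are uncertain. Without WT library 1 at 260 h neither was called, at log2 -2.16 (adjusted p 0.0722, edgeR) for Rpl10-ps3 and -1.89 (adjusted p 0.154, edgeR) for Rpl36a-ps1.

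The X-linked genes were highest in the cells classed as pre-meiotic. Cells clustered on the same counts give no test between classes, so the levels are descriptions, in unscaled CPM summed over the cells of a class in a library. In pre-meiotic cells at 260 h, Rpl36a was at 720.3, 784 and 503 in KO libraries and 797, 422 and 492 in WT libraries. In early pachytene cells it was at 45.4, 40.9 and 30.9 in KO and 121, 48.7 and 30.7 in WT, and in late pachytene cells at 360 h at 8.91, 29.0 and 39.3 in KO and 13.9, 8.25 and 4.13 in WT. Pre-meiotic levels lay above all others. Late pachytene levels lay below all early pachytene ones in WT but overlapped with them in KO, and in late pachytene cells the genotypes overlapped for Rps4x, Rpl39 and Rpl36a alike. In KO library 3 at 360 h, whose 10 pre-meiotic cells could be summed, Rpl36a was at 401 in pre-meiotic and 39.3 in late pachytene cells.

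**Figure D4:**
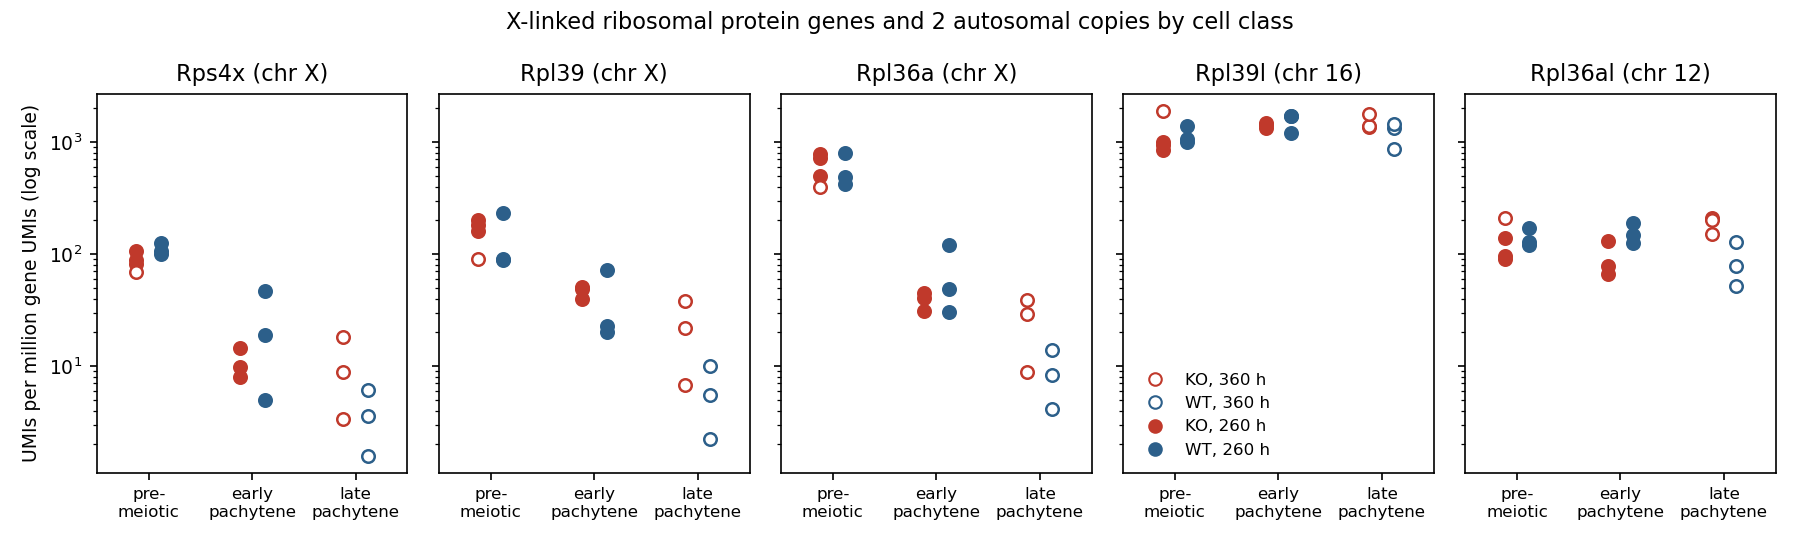
Levels of the X-linked Rps4x, Rpl39 and Rpl36a and of the autosomal copies Rpl39l and Rpl36al by the authors' cell class, in unscaled CPM on a log scale; each point is a library with at least 10 cells of the class, KO (red) left and WT (blue) right within a class, open at 360 h and filled at 260 h. Rpl36a lies at 401 to 797 in pre-meiotic and at 4.13 to 39.3 in late pachytene cells, while Rpl39l stays between 844 and 1907.

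Most of the family was lower in early pachytene than in pre-meiotic cells at 260 h. Ribosomal protein UMIs were 6.78%, 7.12% and 5.77% of gene UMIs in early pachytene cells of KO libraries, against 8.92%, 9.13% and 8.15% in their pre-meiotic cells. In WT libraries they were 7.37%, 5.12% and 4.10% in early pachytene cells, against 11.6%, 8.31% and 6.53% in pre-meiotic cells. The early pachytene share was lower in 6 of 6 libraries, as were 65 of 88 genes (73.9%), against 22.8% of all genes tested and 18.3% of those of at least 100 CPM. The median log2 ratio of early pachytene over pre-meiotic cells was -0.41 to -0.56 for the family in KO libraries and -0.68 to -0.79 in WT libraries, against -0.07 to 0.00 for all genes. After the X-linked genes and their copies, the lowest median log2 ratios were those of the small-subunit genes Rps16 (-1.50), Rps2 (-1.50) and Rpsa (-1.48). Only Rpl39l and Rps27l, with a median of 0.57 each, were higher in early pachytene cells in 6 of 6 libraries. That is 2.27% of the family, against 16.8% of all genes tested and 52.8% of those of at least 100 CPM. In late pachytene cells at 360 h the share was 6.37%, 5.93% and 6.05% in KO libraries and 4.45%, 4.55% and 3.70% in WT libraries, so the gap between genotypes remained without pre-meiotic cells. The authors' k-means clusters split these cells by genotype, with cluster 4 holding the KO and cluster 5 the WT late pachytene cells.

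The autosomal copies Rpl39l and Rpl36al made up a larger share of their pairs in every 360 h library than in any 260 h library of the same genotype. Rpl39l supplied 99.5%, 97.8% and 97.4% of the UMIs of Rpl39l and Rpl39 together in KO libraries at 360 h and 99.2%, 99.6% and 99.6% in WT libraries, against 93.4%, 94.0% and 92.9% in KO and 90.7%, 98.2% and 97.2% in WT at 260 h. Rpl39l itself was not called between times, at 1476, 1361 and 1759 CPM in KO and 1610, 2017 and 1053 CPM in WT at 360 h, and 1201, 1315 and 869 CPM in KO and 1248, 1432 and 1125 CPM in WT at 260 h. The difference in its share, by 4.83 points in KO and 4.10 in WT, reached the smallest p that 3 against 3 libraries allow (exact permutation p 0.1, two-sided). Rpl36al, the autosomal copy of Rpl36a, supplied 94.4%, 71.0% and 71.6% of its pair in KO libraries and 85.2%, 83.4% and 90.5% in WT libraries at 360 h, against 35.8%, 23.9% and 27.6% in KO and 29.7%, 58.6% and 53.8% in WT at 260 h. Rpl36al rose between the times in KO, to 163, 203 and 195 CPM at 360 h against 122, 84.7 and 55.8 CPM at 260 h (log2 1.09 ± 0.33, adjusted p 0.0271, edgeR), but in WT it had 153, 109 and 62.9 CPM at 360 h against 160.3, 124 and 121 CPM at 260 h. The KO call held in 12 of 17 alternatives.

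Rpl22l1, the close homolog of Rpl22, rose with time in both genotypes. It had 178, 439 and 234 CPM in WT libraries at 360 h, against 130.1, 47.3 and 41.8 CPM at 260 h (log2 1.96 ± 0.52, adjusted p 0.00919, edgeR). In KO libraries it had 375, 138 and 115 CPM at 360 h, against 74.2, 58.0 and 52.7 CPM at 260 h (log2 1.76 ± 0.52, adjusted p 0.0260, edgeR). The KO value leaned on library 1, without which it was 1.02 (adjusted p 0.157, edgeR), and leaving out any of the KO libraries at 260 h ended the call as well. Rpl22 went the other way in WT, to 183, 176 and 222 CPM at 360 h against 691, 395 and 459 CPM at 260 h (log2 -1.41 ± 0.26, adjusted p 6.75e-04, edgeR), and in KO it was 429, 415 and 409 CPM at 360 h and 660.4, 724 and 462 CPM at 260 h (log2 -0.56 ± 0.26, adjusted p 0.129, edgeR).

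The pair's composition differed accordingly between libraries. Rpl22l1 supplied between 21.9% and 46.6% of the pair's UMIs in KO libraries, and 49.3%, 71.3% and 51.3% in WT libraries at 360 h, against 10.1%, 7.42% and 10.2% in KO and 15.8%, 10.7% and 8.35% in WT libraries at 260 h. At 360 h every KO library lay below every WT library, by 26.1 percentage points in the mean (exact permutation p 0.1, two-sided, adjusted 0.160 over 8 tests). That is the smallest p that 3 against 3 libraries allow, and it was also reached for the difference of the Rpl22l1 share with time, of 45.7 points in WT and 21.9 points in KO. The Rpl22l1 level itself did not differ by the test between KO and WT at 360 h (log2 -0.44 ± 0.50, adjusted p 0.573, edgeR), while Rpl22 did.

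Between the times in KO cells, 3 genes rose and 3 fell of 88 (6.82%), where 23.5% of all genes were called, 13.3% higher and 10.2% lower at 360 h. Among genes of at least 100 CPM 39.1% were, 30.9% higher and 8.22% lower. Beside Rpl22l1 and Rpl36al, the retrogene Rps27rt rose, to 269.5, 299 and 240.0 CPM at 360 h against 129, 150.2 and 74.1 CPM at 260 h (log2 1.19 ± 0.41, adjusted p 0.0454, edgeR). Its parent Rps27 had 1736, 1544 and 1404 CPM at 360 h and 1355, 1814 and 1103 CPM at 260 h, which was no call. The Rps27rt call held in 11 of 17 alternatives. The 3 genes that fell were Rps2, Rpl13 and Rplp2. The median was -0.02, against -0.15 for all genes and 0.34 for those of at least 100 CPM. With spike-in scaling it was 0.21 against 0.04 for all genes.

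Rps2 fell to 91.9, 77.9 and 104 CPM in KO libraries at 360 h, against 748, 861 and 595 CPM at 260 h, a log2 change of -3.01 ± 0.32 (adjusted p 2.33e-05, edgeR) that was called in all 17 alternatives. In WT it fell to 128, 106 and 242 CPM at 360 h, against 343, 301 and 405 CPM at 260 h (log2 -1.14 ± 0.30, adjusted p 0.00713, edgeR). The fall was larger in KO: the KO effect at 360 h minus that at 260 h was -1.87 ± 0.42 (adjusted p 0.0187, edgeR), and Rps2 was the only family gene called in that comparison, at 1.14% of 88 where 5.08% of all genes were, 2.30% higher and 2.78% lower. Among genes of at least 100 CPM 4.77% were, 2.21% higher and 2.56% lower. The Rps2 call held in 17 of 23 alternatives. It was lost with spike-in scaling (adjusted p 0.122, edgeR) and with library 3 of both WT groups left out together. It was also lost without WT library 2 at 260 h, KO library 1 or 2 at 260 h or KO library 3 at 360 h, with adjusted p of 0.086, 0.0642, 0.0789 and 0.0635 (edgeR).

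Rpl13, a large-subunit protein, fell in KO to 327, 249.8 and 344 CPM at 360 h, against 1431, 1715 and 1016 CPM at 260 h (log2 -2.18 ± 0.48, adjusted p 0.00512, edgeR). Rplp2, an acidic protein of the ribosomal stalk that recruits elongation factors, fell to 434, 358 and 449 CPM, against 1221, 1426 and 957 CPM (log2 -1.54 ± 0.33, adjusted p 0.00406, edgeR). In WT library 3 stood above the other libraries at 360 h for both genes, and neither was called with time. The log2 change of Rplp2 in WT was -0.84 ± 0.33 (adjusted p 0.0521, edgeR), and it was called, at -1.28, without library 3 at 360 h. Rpl13 had 308, 278 and 1102 CPM at 360 h and 375, 479 and 837 CPM at 260 h, and Rplp2 had 299, 309 and 645 CPM at 360 h and 987, 479 and 779 CPM at 260 h. Rps19bp1 was also highest in WT library 3, with 21.7, 26.6 and 28.4 CPM in KO and 35.8, 27.4 and 197 CPM in WT at 360 h, and 130.4, 164 and 95.1 CPM in KO and 14.4, 48.7 and 128 CPM in WT at 260 h. WT library 3 was the highest WT library at each time for Rpl13, Rps19bp1 and Rps2, the last at 242 CPM at 360 h and 405 CPM at 260 h. It also had the most gene UMIs per spike-in UMI, at 31.2 and 19.0. At 260 h its early pachytene cells fell into the authors' cluster 3 together with the KO cells, and those of the other WT libraries into cluster 2. The part of these differences between libraries in the levels of these genes was not tested.

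**Figure D5:**
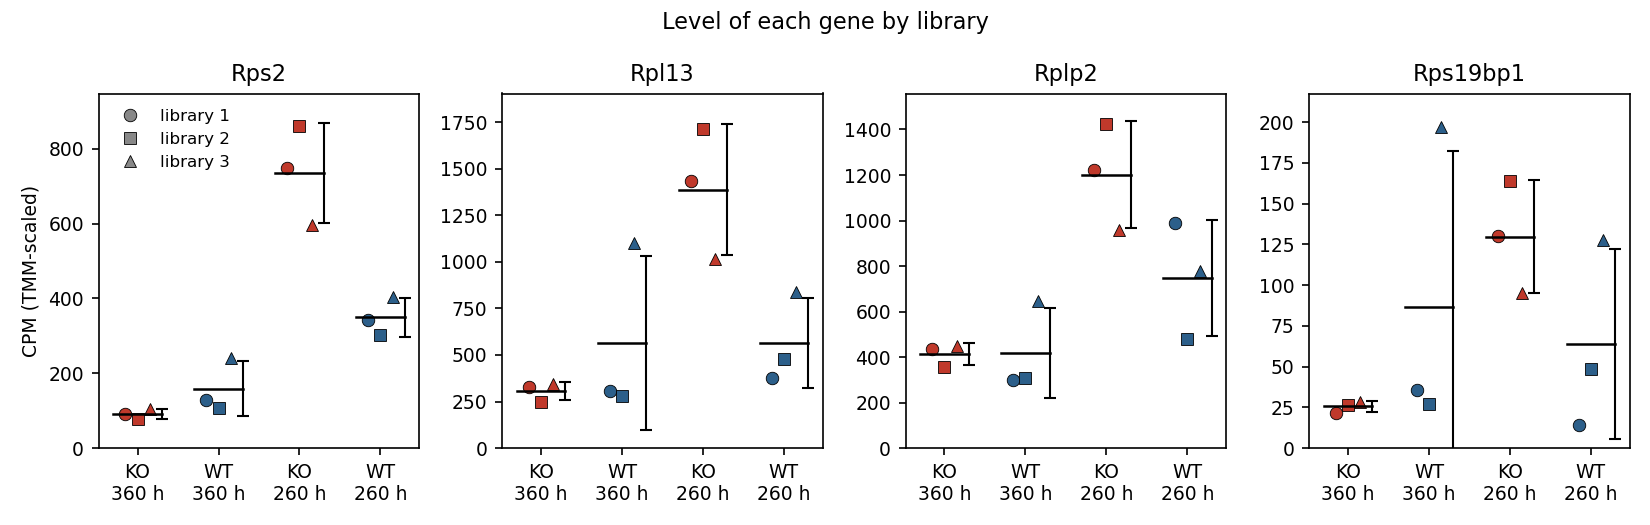
Levels of Rps2, Rpl13, Rplp2 and Rps19bp1 in CPM (UMIs relative to the TMM-scaled library size) in the 12 libraries; symbols are libraries, bars the mean and SD of 3. In KO all 4 genes are lower at 360 h than at 260 h, and in WT library 3 at 360 h Rpl13 (1102 CPM) and Rps19bp1 (197 CPM) stand above the other WT libraries of that time.

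The other autosomal genes called between the times in WT fell by less. Rpl14, a large-subunit protein whose start holds a run of 14 pyrimidines, had 449, 457 and 415 CPM at 360 h and 1507, 862 and 799.8 CPM at 260 h (log2 -1.26 ± 0.27, adjusted p 0.00214, edgeR). Rpl5 and Rpsa, higher in KO than in WT at 360 h, fell in WT by 0.92 ± 0.29 and 0.86 ± 0.27 on the log2 scale (adjusted p 0.0181 and 0.0200, edgeR), and in KO their log2 changes were 0.14 ± 0.28 and -0.19 ± 0.27 without a call. The comparisons share the WT libraries at 360 h. These calls held in 11 and 12 of 18 alternatives. Rpl3, near the catalytic centre of the large subunit, fell in WT by 0.72 ± 0.24 (adjusted p 0.0275, edgeR), a call that held in 8 of 18 alternatives. Rps10, with most of its UMIs in pseudogene rows, fell by 1.44 ± 0.38 (adjusted p 0.00787, edgeR).

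Rpl41, a short large-subunit protein, had the highest mean level, on a scale that is not adjusted for length. It had 1974, 1682 and 1474 CPM in KO and 2170, 2488 and 1278 CPM in WT libraries at 360 h, and 1609, 1929 and 1273 CPM in KO and 2371, 1759 and 1134 CPM in WT libraries at 260 h. Rps29, of the small subunit, averaged 1745 ± 240.5 CPM in KO and 1675 ± 394 CPM in WT at 360 h, and 1699 ± 334 CPM in KO and 1472 ± 605 CPM in WT at 260 h (SD, n = 3 each). The stalk proteins Rplp0 and Rplp1, unlike Rplp2, were called in no comparison. Rplp0 averaged 1752 ± 222 CPM in KO and 1574 ± 570.0 CPM in WT at 360 h, and 1385 ± 256 CPM in KO and 1462 ± 397 CPM in WT at 260 h. Rps27a, made as a fusion with ubiquitin, averaged 1116 ± 122 CPM in KO and 1018 ± 217 CPM in WT at 360 h, and 1015 ± 259 CPM in KO and 981 ± 368 CPM in WT at 260 h, likewise with no call.

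The remaining copies were called in no comparison. Rps27l, the p53-responsive relative of Rps27, averaged 866 ± 67.8 CPM in KO and 628 ± 70.9 CPM in WT at 360 h (log2 0.46 ± 0.27, adjusted p 0.242, edgeR). Rpl7l1, a nucleolar relative of Rpl7, averaged 106 ± 3.28 CPM in KO and 90.4 ± 16.6 CPM in WT at 360 h. Rpl3l, the striated-muscle relative of Rpl3, stayed at 2.81 ± 0.758 CPM in KO and 2.19 ± 0.552 CPM in WT at 360 h, which is at or under 1.32% of the UMIs of the pair in every library. The lowest mean levels besides Rpl3l were those of Rps12-ps3 and Rpl24. Rpl24 averaged 2.53 ± 0.516 CPM in KO and 1.69 ± 0.213 CPM in WT at 360 h. The exons of Rpl24 share 47% of their length with another annotated gene on the same strand, and whether reads there were dropped was not tested.

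Of 54 tested factors that build ribosomes, 11 were higher and 4 lower in KO than in WT at 360 h, which is 27.8% against the 22.5% of all genes. Ncl, the nucleolar protein nucleolin, averaged 1199 ± 71.8 CPM in KO and 134 ± 21.0 CPM in WT (log2 3.16 ± 0.32, adjusted p 7.82e-06, edgeR). Nop56, of the box C/D snoRNPs that guide rRNA methylation, averaged 128 ± 26.6 CPM in KO and 16.6 ± 2.10 CPM in WT (log2 2.95 ± 0.38, adjusted p 6.61e-05, edgeR), and the RNA helicase gene Ddx10 was called higher too (log2 1.71 ± 0.25, adjusted p 1.91e-04, edgeR). Between the times in WT, 25 assembly factors fell and 7 rose (median -0.65), or 59.3% against 39.9% of all genes, and in KO 9 fell and 6 rose (median -0.10), or 27.8% against 23.5%. Ncl fell in WT by 2.82 ± 0.32 on the log2 scale, to 134 ± 21.0 CPM at 360 h against 945 ± 451 CPM at 260 h (adjusted p 1.68e-05, edgeR). At 260 h no assembly factor was called between the genotypes.

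Other genes of translation were called at 360 h at shares at or under the 22.5% of all genes. Of 43 initiation and elongation factors, 2 were higher and 5 lower in KO (16.3%), among them Eif4b (143 ± 13.0 CPM in KO and 70.2 ± 9.02 CPM in WT) and the germ-cell poly(A)-binding protein gene Pabpc2 (177 ± 46.0 CPM in KO and 919 ± 308 CPM in WT). Of 19 other mRNAs with a TOP start, 1 was called (5.26%), Eif4b. Of 18 regulators of TOP mRNA translation, 4 were higher and none lower in KO (22.2%), among them Tsc2, an inhibitor of mTOR signalling, at 69.2 ± 16.9 CPM in KO and 13.7 ± 1.63 CPM in WT (log2 2.33 ± 0.28, adjusted p 3.6e-05, edgeR), and Deptor, another mTOR inhibitor, at 32.7 ± 17.7 CPM in KO and 4.68 ± 0.880 CPM in WT. The S6 kinase gene Rps6kb2 was called higher too, at 27.8 ± 1.98 CPM in KO and 5.52 ± 1.68 CPM in WT. The median log2 fold change of the 18 regulators was -0.13. Of 77 mitochondrial ribosomal protein genes, 5 were higher and 3 lower in KO at 360 h (10.4%) and none was called at 260 h. With time 18 rose and 6 fell in WT (31.2% against 39.9% of all genes), and 12 rose and 10 fell in KO (28.6% against 23.5%). Of the early meiotic prophase markers, 8 of 14 were higher in KO than in WT at 360 h, and 8 of 14 mid and late pachytene markers were lower, and their part in these values was not tested.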

How the data were processed

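The deposited files hold raw UMI counts per gene and cell barcode. Per the submitters' processing notes, the counts were made on mm10 with STAR 2.5.3a, featureCounts 1.6.4 and UMI-tools 1.0.0, whose settings and strand handling no source states. The authors' deposited cell table gave the kept cells, their class and cluster, and the percent of ribosomal UMIs per cell. Doublets were not called in these hand-picked cells. Of the 96 barcodes per library, 13 occur in all libraries, as each library reuses the barcode set. The members and gene lists were chosen with earlier results of these data known. Counts of kept cells were summed per library, with 92 ERCC rows left out, filtered by filterByExpr (20279 genes), scaled by TMM and fitted with edgeR 4.0.16 (R 4.3.3, limma 3.58.1; DESeq2 1.42.0 as an alternative) on all 12 libraries, 1 coefficient per group, robust quasi-likelihood F-test, two-sided. Adjusted p-values cover all genes tested, and the common biological coefficient of variation was 0.486. Class ratios used a pseudocount of 1 CPM and classes of at least 10 cells. On counts simulated at these depths the fit was tested before use. Libraries of a group differed beyond counting noise, so none was a duplicate. Same-numbered libraries did not deviate together (correlations -0.20 to 0.22), so replicate numbers were not used as pairs. Alternatives were other scalings, filters, tests and subsets of cells and libraries. Genes named in the text were those called (all, or the 5 largest per direction beyond 10), the copies and partners, X-linked genes, the stalk genes, Rps27a, Rpsa, and those of highest and lowest mean; Rpl14, Rps10, Rps16 and Rps19bp1 were named after their values were seen. A gene called in WT between the times is not reported here.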

Additional observations from a re-analysis of the deposited data

Results flagged for a closer look

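The KO effect on Rps2 differed between the times by a test of the difference itself: at 360 h minus 260 h it was -1.87 ± 0.42 on the log2 scale (SE, adjusted p 0.0187, edgeR). Rps2 had 91.9, 77.9 and 104 CPM in KO and 128, 106 and 242 CPM in WT at 360 h, and 748, 861 and 595 CPM in KO and 343, 301 and 405 CPM in WT at 260 h. Neither genotype comparison was called alone, with a log2 change of -0.79 (adjusted p 0.0673, edgeR) at 360 h and 1.07 (adjusted p 0.0918, edgeR) at 260 h. The call of the difference held in 17 of 23 alternatives.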

How the results depend on the processing

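Of 26 single-gene calls, 4 held in every alternative run: Rps2 with time in KO and Rps4x, Rpl39 and Rpl36a with time in WT. None of the 26 changed sign, but spike-in scaling turned the balance of calls: 0 higher and 1 lower between KO and WT at 360 h, and 11 higher and 5 lower with time in WT. For KO against WT at 260 h, the 0 calls became 1 without the filter on low counts, 1 with DESeq2, 1 with cells thinned to 44624 UMIs and 2 without library 3 of both WT groups, a setting added after seeing the data. For KO against WT at 360 h, the 5 calls became 3 with DESeq2 size factors, 1 with spike-in scaling, 25 with gene totals alone (also added after seeing the data), 10 with limma-voom, 19 with only the groups compared, 8 without pre-meiotic cells, 9 with thinned cells and 1 without library 3 of both WT groups, and the median of 0.23 became -0.24 with spike-in scaling. With time in KO, the 6 calls became 3 with spike-in scaling and 14 with totals alone. With time in WT, the 14 calls became 41 with totals alone and 8 without pre-meiotic cells, and the median of -0.18 became 0.37 with spike-in scaling and -0.66 with totals alone. Totals alone called 46.6% of the family against 43.8% of all genes with time in WT. Between KO and WT at 360 h it called 28.4% against 22.9%. In every other setting and comparison, the share called in the family lay below that of all genes. For the difference between the KO effects, the 1 call became 3 without the filter, 0 with spike-in scaling, 4 with totals alone, 3 with DESeq2 and 3 with thinned cells. The cause was not tested.

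Leaving out 1 library at a time gave 0 calls at 260 h (median -0.12 to 0.45), 1 to 4 at 360 h (median 0.12 to 0.31), 3 to 4 with time in KO (median -0.16 to 0.23), 10 to 17 with time in WT (median -0.35 to 0.17) and 0 to 2 for the difference of effects. The KO minus WT share of gene UMIs was 1.70 to 2.14 points at 360 h and -0.112 to 2.21 at 260 h. The replicate number as a block gave 0, 7, 8, 14 and 1 calls, in the order of the comparisons above.

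Depth limits the genes of low level: Rpl36a-ps1, Rpl3l, Rpl24 and Rps12-ps3 rest on few UMIs, and no fold of theirs is firm.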
